A study of Mus musculus with 8 samples.

Results

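The regions described here are 7424 ATAC-seq peaks that lie between genes, close to but outside promoters, in mouse forebrain microglia. They are the peaks annotated as intergenic in the deposited table, at most 20 kb from the nearest annotated transcription start site, outside repeats and CpG islands, on chromosomes 1 to 19. They make up 10.9% of the 67822 peaks of the study. ATAC-seq reads open chromatin from where a transposase inserts adapters. Microglia, the macrophages of the brain, were taken from forebrains of wild-type animals (4 libraries, C57BL/6N genetic background) and of mice with a Cias1 knockout, named Nlrp3-/- (4 libraries), by removing myelin and collecting CD11b+ cells on magnetic columns. Cias1 is an older name of Nlrp3, the gene for the sensor of an inflammasome, and the comparison asks how its loss bears on accessibility. The knockout is of the whole animal as far as the labels describe it, the construct is not described, and neither age, sex nor treatment is given for either genotype. A genetic background is stated here for the wild type only, so the knockout and any difference in background cannot be told apart. Whether each library stands for its own animal is not in the labels, so the p-values here reflect the spread between libraries, part of which may be technical.

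Regulatory DNA outside promoters holds enhancers, short stretches where transcription factors displace nucleosomes and from which they can act on a start site some distance away. In microglia, enhancers bound by PU.1 together with other factors such as IRF8, SALL1 and the AP-1 family carry much of the identity of the cell. An open intergenic peak can also be an insulator site bound by CTCF, or the promoter of a transcript that the annotation used does not list. The nearest gene is a convention for naming a peak and does not show which gene, if any, it acts on.

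The start sites used by the deposited table were not the ones in RefSeq for all of these regions. Of the 7424 near intergenic peaks, 134 (1.80%) overlapped a RefSeq promoter window of build GRCm38.p6, the mouse assembly also called mm10, which runs from 250 bases before to 50 bases after a listed start. Of the intergenic peaks 20 to 100 kb from a start site, 125 (1.96%) did. The bases below are the parts of 5 near intergenic peaks that lie before such a RefSeq start. The first pair are the most accessible of the peaks with such bases, and the other 3 are the most accessible whose shown bases match a core of the CTCF site. All are from the plus strand, credited to RefSeq. Capitals mark the letters that match, on either strand, the CTCF core or, in the Stard9 window, an NF-kB site.
Gm33560 start, chr7:141123025-141123230, in a peak assigned to Ano9: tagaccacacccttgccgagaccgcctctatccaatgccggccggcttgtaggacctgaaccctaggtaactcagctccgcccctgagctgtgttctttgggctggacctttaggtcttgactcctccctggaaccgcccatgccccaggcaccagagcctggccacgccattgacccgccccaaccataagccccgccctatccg
Stard9 start, chr2:120628871-120629120, in a peak assigned to Haus2: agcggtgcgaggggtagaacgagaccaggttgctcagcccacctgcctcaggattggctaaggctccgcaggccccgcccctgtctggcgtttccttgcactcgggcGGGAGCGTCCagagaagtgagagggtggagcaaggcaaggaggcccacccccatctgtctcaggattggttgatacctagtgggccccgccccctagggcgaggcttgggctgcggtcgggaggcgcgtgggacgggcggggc
Gm39228 start, chr8:94183230-94183418, in a peak assigned to Mt1: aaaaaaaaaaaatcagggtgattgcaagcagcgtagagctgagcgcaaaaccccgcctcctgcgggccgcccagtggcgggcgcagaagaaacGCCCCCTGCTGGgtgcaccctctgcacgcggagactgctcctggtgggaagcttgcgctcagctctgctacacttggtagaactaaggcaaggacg
Gm30470 start, chr11:79224513-79224684, in a peak assigned to Wsb1: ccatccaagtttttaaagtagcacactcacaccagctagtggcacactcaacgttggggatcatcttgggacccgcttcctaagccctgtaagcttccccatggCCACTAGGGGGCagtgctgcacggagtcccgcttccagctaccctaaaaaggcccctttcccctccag
Gm46521 start, chr15:80225351-80225555, in a peak assigned to Mief1: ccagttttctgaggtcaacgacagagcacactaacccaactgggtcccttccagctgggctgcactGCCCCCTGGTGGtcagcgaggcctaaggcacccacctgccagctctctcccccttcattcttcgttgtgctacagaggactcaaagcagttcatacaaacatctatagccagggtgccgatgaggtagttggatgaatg

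The peak at the start of Stard9, a kinesin family gene, was named for Haus2 and placed 19422 bp downstream of the Haus2 start. Its accessibility was 80.3 ± 9.38 CPM in knockout and 85.0 ± 14.9 CPM in wild type (SD, n = 4 each), where CPM is tags per 1000000 tags in tested peaks after TMM scaling. The peak at the start of the noncoding gene Gm33560 had 95.4 ± 12.4 CPM in knockout and 91.9 ± 9.75 in wild type. Both lie well above the median near intergenic peak, which had 9.50 CPM in wild type. Neither passed the test between genotypes (edgeR quasi-likelihood test, adjusted p = 0.999966 for each).

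The letters searched were those of 9 factor motifs, on both strands, in the 133 RefSeq windows that near intergenic peaks overlap and in all 32851 windows of the table, each 300 bases long. Matches of different motifs may overlap and each was counted. The CTCF letters were in 12 of the 133 windows (9.02%) and in 2.43% of all windows. The PU.1 letters GAGGAAGT were in 5.26% against 3.20% of all windows, and the AP-1 letters TGANTCA in 10.5% against 7.81%. The IRF letters were in 5.26% against 3.44%, the RUNX letters TGTGGTTT in 3.01% against 1.78%, and the NF-kB letters in 21.1% against 20.7%. The C/EBP letters TTGCNNAA, at 9.77% against 10.8%, and the MEF2 letters, at 3.01% against 3.69%, were less frequent at these windows than overall. The E-box CACGTG read by the TFE family was in 8.27% against 7.15%. These shares describe the letters in the whole windows, including parts outside the peaks, and were not tested. Near intergenic peaks leave out CpG islands and repeats, while the windows of the table were not selected in that way. The compared sets of windows are therefore unlike.

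With whole genes in place of promoter windows, 1947 near intergenic peaks (26.2%) overlapped a gene listed in RefSeq. Peaks at a promoter window were not left out of this count. Of the 1947, 1134 overlapped a long noncoding RNA gene and 762 a protein-coding gene. Among the intergenic peaks 20 to 100 kb away, 25.5% overlapped a RefSeq gene. The word intergenic thus holds for the annotation of the deposited table and not for every listed transcript. Accessibility was higher at the 134 peaks that overlap a RefSeq promoter window than at the other 7290, by 1.11-fold in tags per kb of peak. The direction was the same in 8 of 8 libraries (exact sign-flip permutation p = 0.0078, the smallest that 8 libraries allow, adjusted p = 0.0156 over the pair of ratios added after the data were seen). Every library measures the same peaks, so this p-value does not measure the spread among peaks.

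Libraries held 11325865 to 15521580 tags. The share of them in peaks was 6.68% and 4.96% in knockout replicates 1 and 2, 20.9% and 26.2% in knockout replicates 3 and 4, and 9.79% to 17.5% in wild type, so the median tested near intergenic peak held from 8 tags (knockout replicate 2) to 33 (knockout replicate 4). Chromosome Y held 88, 201 and 255 tags in knockout replicate 3 and wild-type replicates 3 and 4, against 1 to 13 in the others. Both promoter peaks of Nlrp3 held 54 to 80 tags in every wild-type library and 3 tags in all knockout libraries together, as the labels state. All 8 microglial marker genes examined had a promoter peak, with 11 such peaks in all (summed CPM 231.8 to 319.3 in knockout and 248.8 to 268.0 in wild type). Markers of other cells had few: 2 of 7 genes for border macrophages and monocytes (summed CPM 6.15 to 14.8 in knockout and 8.38 to 11.95 in wild type), 1 of 4 for astrocytes, 1 of 5 for oligodendrocytes, 2 of 4 for endothelial and mural cells, 0 of 5 for neurons and 0 of 4 for granulocytes and lymphocytes. In these bulk samples, fewer cells of a type and less accessibility per cell cannot be told apart.

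Near intergenic peaks were narrow, with widths from 201 to 1524 bp and a median of 264. In all, 5952 (80.2%) lay upstream of the start site they were assigned to and 1472 downstream. Their median distance was 8088.5 bp. They were assigned to 4273 genes, of which 2614 had 1 such peak and 176 had 5 or more. The assigned gene was protein-coding for 6409 peaks and noncoding for 948. The list of the wild-type libraries and that of the knockout libraries shared 5596 of the peaks, while 1243 were in the wild-type list only (16.7%) and 585 in the knockout list only (7.88%). Other classes had more in the wild-type list only as well. The shares were 17.2% and 9.03% of intergenic peaks 20 to 100 kb away, 17.8% and 9.30% of intron peaks and 9.83% and 3.92% of promoter peaks. At the edge of the rule, the farthest included were peaks assigned to Mapk3 (-20000 bp) and Carlr (-19997 bp), with 16.5 and 18.2 CPM in wild type, and the nearest not included were assigned to Hif1an (20001 bp) and Hhipl2 (20004 bp), with 20.46 and 4.56 CPM.

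**Figure D1:**
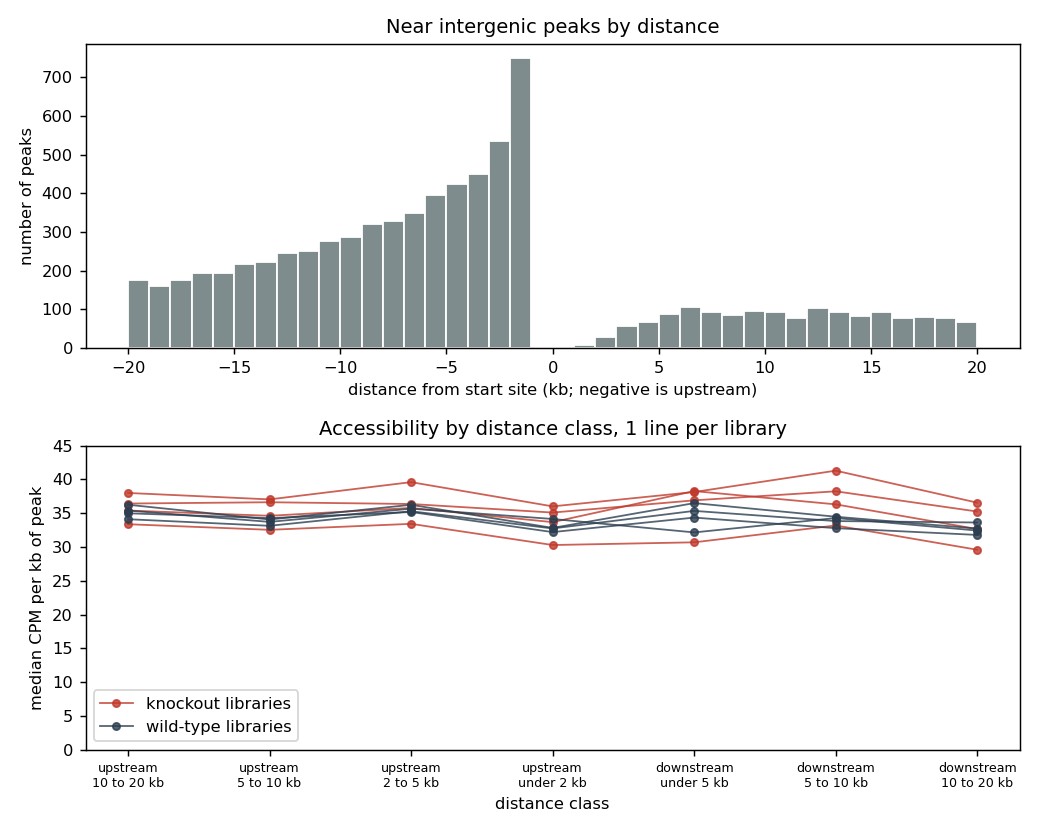
Top, the number of near intergenic peaks (vertical axis) in bins of 1 kb of distance from the assigned start site (horizontal axis, negative is upstream). Bottom, the median CPM per kb of peak in 7 distance classes, with 1 line per library; upstream counts rise toward the start site, while the median accessibility stays between 29.6 and 41.3 in every class and library.

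Upstream peaks became more numerous toward the start site, but not more open. The upstream class 10 to 20 kb away held 2113 peaks and had a median of 34.2 wild-type CPM per kb. The 749 upstream peaks under 2 kb away had 32.5, and the 848 downstream peaks 10 to 20 kb away had 32.1. Summed over peaks, those upstream and under 5 kb away had 0.984 times the tags per kb of those upstream and 10 to 20 kb away, a small difference in the opposite direction in 1 of 8 libraries (knockout replicate 2; exact sign-flip permutation p = 0.0391, adjusted p = 0.0391, added after the data were seen). Upstream and downstream near intergenic peaks did not differ in density beyond the spread between libraries (mean log2 ratio 0.0066, exact sign-flip permutation p = 0.656, adjusted p = 0.738 over the 9 tests on library ratios and shares described here).

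Set against the other classes of peak in the same library, near intergenic peaks were much less open than promoters and slightly more open than other distal peaks. Their mean density was 0.667 times that of promoter peaks, with the log2 ratio below 0 in 8 of 8 libraries and ranging from -0.81 to -0.42. It was 1.04 times that of intergenic peaks 20 to 100 kb from a start site, with log2 ratios from 0.020 to 0.079, above 0 in 8 of 8 libraries. It was 1.07 times that of intron peaks, with log2 ratios from 0.076 to 0.117, again in 8 of 8 libraries. Each of these 3 ratios had an exact sign-flip permutation p = 0.0078, the smallest possible, and an adjusted p = 0.0234. The same peaks are measured in every library, so these p-values do not measure the spread among peaks. Promoter peaks include those in CpG islands, which the other classes leave out. Near intergenic peaks held 10.3% ± 0.25 of the tags in peaks in knockout and 10.1% ± 0.39 in wild type (SD, n = 4 each).

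**Figure D2:**
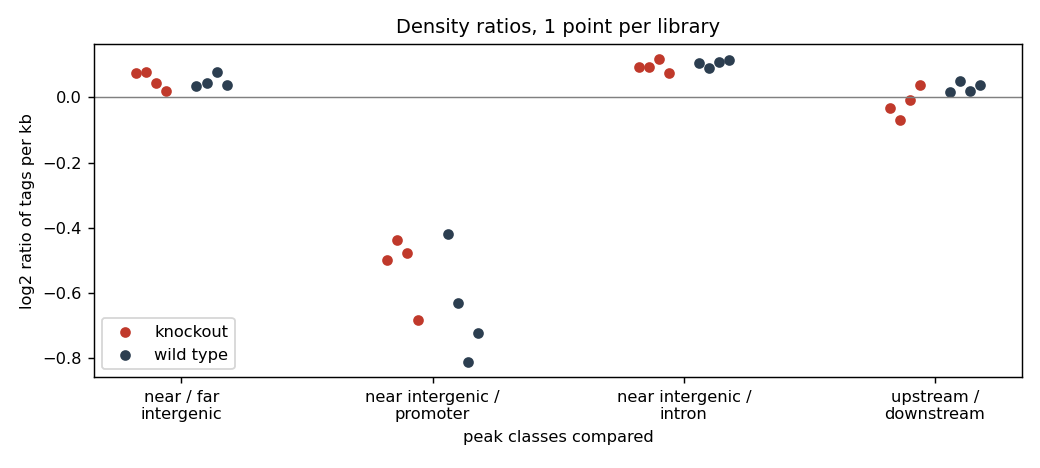
Log2 ratio of tags per kb of peak (vertical axis) between near intergenic peaks and 3 other classes, and between upstream and downstream near intergenic peaks (horizontal axis), with 1 point per library. Every library lies above 0 against far intergenic and intron peaks and below 0 against promoter peaks, and the genotypes overlap in all 4 ratios.

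None of these measures differed between genotypes beyond the spread. The share of tags in near intergenic peaks was 0.199 percentage points higher in knockout (exact permutation p = 0.457, adjusted p = 0.588, two-sided, where 4 against 4 libraries can reach 0.0286). The ratio to promoters was higher by 0.12 on the log2 scale in knockout (p = 0.314 by exact permutation, adjusted p = 0.557). The ratio to intergenic peaks farther away differed by 0.0043 (p = 0.8 by exact permutation) and that to introns by -0.0099 (p = 0.371, exact). The ratio of upstream to downstream peaks was -0.0172 ± 0.0456 in knockout and 0.0305 ± 0.0167 in wild type (p = 0.114 by exact permutation, adjusted p = 0.257).

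Few near intergenic peaks differed between knockout and wild type beyond the spread between libraries. Of 6352 with enough tags to be tested, 7 (0.11%) passed an adjusted p of 0.05 in edgeR's quasi-likelihood test of knockout against wild type, fitted and adjusted over all 58135 tested peaks, of which 0.17% passed. Of these, 2 were higher in knockout (0.055% of all tested peaks were) and 5 lower (0.115% of all tested peaks were). The share called among near intergenic peaks was thus near the background, as were the 316 with an unadjusted p under 0.05 (4.97%, against 4.83% of all tested peaks) and the 204 whose genotypes did not overlap (3.21%, against 3.17%). Of those 204, 105 were higher in knockout (1.65%, against 1.68% of all tested peaks) and 99 lower (1.56%, against 1.49%). By class, 12 of 5321 tested intergenic peaks 20 to 100 kb away passed (0.226%), as did 41 of 19455 in introns (0.211%) and 6 of 12064 promoter peaks (0.0497%); the differences between these shares were not tested. The median log2 fold change was 0.019 over the tested near intergenic peaks and 0.0037 over all tested peaks, and 48 near intergenic peaks exceeded 2-fold. The other 1072 were too low to test. Among the 5466 tested near intergenic peaks in the lists of both genotypes, 4 passed and 0 of them were higher (0.0732%, against 0.17% of all tested peaks).

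**Figure D3:**
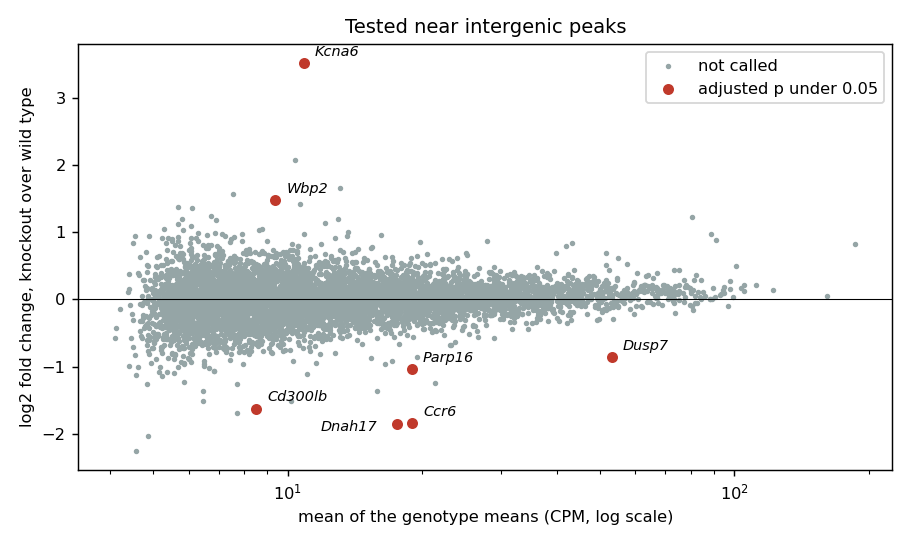
Log2 fold change of knockout over wild type (vertical axis) against mean CPM on a log scale (horizontal axis) for the 6352 tested near intergenic peaks, with those that passed in red and named for their assigned gene. Of the 7 that passed, 2 lie above 0 and 5 below, and Kcna6 stands highest at 3.51.

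The number called depended on single libraries. It was 2 without knockout replicate 3 (0.0307%, against 0.109% of all peaks tested in that fit) and 17 without knockout replicate 4 (14 of them higher; 0.26%, against 0.206%). Without wild-type replicate 1, 8 passed, 5 of them higher (0.124%, against 0.14% of all). Without wild-type replicate 3, 7 passed, 4 of them higher (0.103%, against 0.114% of all). Fewer fell whenever a library was left out (1 without knockout replicate 3, 4 without knockout replicate 2 and 3 without any of the others). Without knockout replicates 1 and 2, the libraries with the lowest share of tags in peaks, 21 passed, 5 higher and 16 lower (0.295%, against 0.378% of all). With libraries scaled to all their tags, 1 passed, higher in knockout, and none lower (0.0157%, against 0.0327% of all).

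The peak with the largest change was 12670 bp upstream of Kcna6, a voltage-gated potassium channel gene (chr6:126753189-126753500). It held 17, 15, 50 and 48 tags in knockout replicates 1 to 4 and 3, 3, 5 and 1 in wild-type replicates 1 to 4, that is 20.51, 22.1, 21.95 and 15.5 CPM against 1.49, 2.11, 2.85 and 0.466 CPM. All knockout libraries were above all wild-type libraries, with a log2 fold change of 3.51 (SE 0.36, edgeR adjusted p = 2.12e-06). It passed under all 15 alternatives in which it could be tested (adjusted p from 6.36e-09 to 0.0210). It was in the peak list of the knockout only. It thus entered the peak set through the genotype where it was higher, and its test is not independent of that. It lies inside the RefSeq long noncoding RNA gene Gm33581 (chr6:126716456-126758879), which the deposited annotation did not use. The other peak assigned to Kcna6, 29435 bp upstream, had 6.82 ± 3.36 CPM in knockout and 0.241 ± 0.278 in wild type and was too low to be tested. None of the 34 other tested peaks within 1 Mb passed.

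The other peak that was higher in knockout lay 8640 bp upstream of Wbp2, a gene for a transcriptional coactivator that binds WW domains (chr11:116095502-116095768). It held 14, 8, 31 and 41 tags in knockout and 9, 5, 12 and 10 in wild type, or 16.9, 11.8, 13.6 and 13.3 CPM against 4.47, 3.51, 6.83 and 4.66 CPM. The genotypes did not overlap, with a log2 fold change of 1.48 (SE 0.29, adjusted p = 0.0184, edgeR). It no longer passed without knockout replicate 3 (adjusted p = 0.106), without wild-type replicate 1 (0.0768), 2 (0.0937) or 4 (0.0960), with DESeq2 (0.108) or with scaling to all tags. Over the 15 alternatives its adjusted p ranged from 0.00998 to 0.999992. Like the Kcna6 peak, it was in the peak list of the knockout only, and the same limit holds for its test. The promoter peaks of Wbp2 did not follow it, at -0.073 and -0.38 on the log2 scale, neither of which passed.

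**Figure D4:**
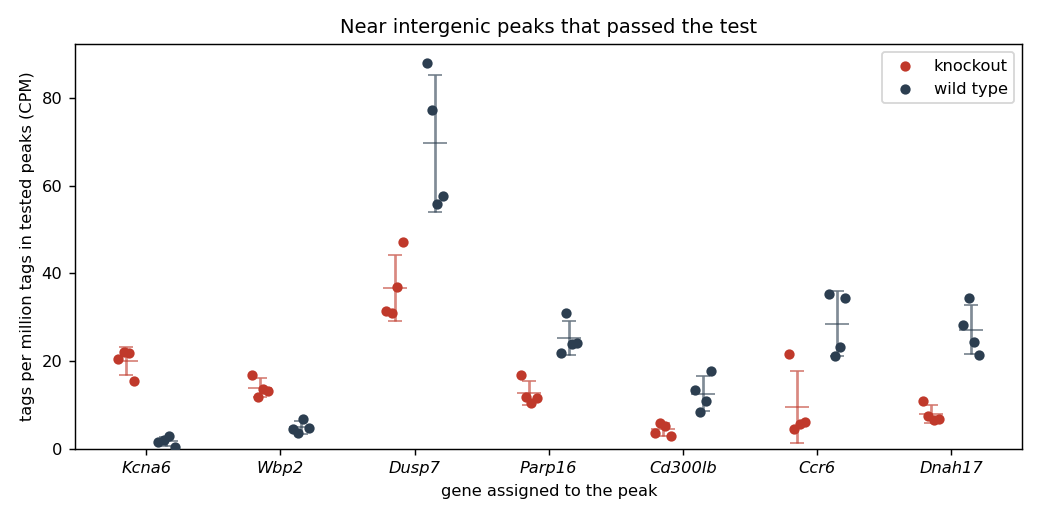
CPM (vertical axis) of the 7 near intergenic peaks that passed the test, by assigned gene (horizontal axis), with 1 point per library, and the mean and SD of the 4 libraries of each genotype. Kcna6 and Wbp2 are higher in knockout and the others lower, and the genotypes overlap only at Ccr6, through knockout replicate 1 at 21.7 CPM.

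Of the 5 peaks that were lower in knockout, the one with the smallest p lay 16709 bp upstream of Dnah17, an axonemal dynein gene (chr11:118145746-118146110). It had 10.9, 7.38, 6.59 and 6.79 CPM in knockout and 28.3, 34.4, 24.5 and 21.4 in wild type, from 5 to 21 tags against 43 to 57. Every wild-type library was above every knockout library (log2 fold change -1.85, SE 0.24, edgeR adjusted p = 0.000116). It passed in 15 of 16 alternatives, all but the scaling to all tags (log2 fold change -1.79). None of the 7 other tested peaks assigned to Dnah17 passed, with log2 fold changes from -0.50 to 0.44.

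The peak 7195 bp upstream of Ccr6, a chemokine receptor gene (chr17:8228724-8228973), had 21.7, 4.43, 5.71 and 6.15 CPM in knockout and 35.3, 21.1, 23.3 and 34.5 in wild type. Knockout replicate 1 lay within the wild-type range and the other 3 below it. The log2 fold change was -1.84 (SE 0.31, edgeR adjusted p = 0.00321), and it was -1.64 without knockout replicate 3, when the peak just missed the threshold (adjusted p = 0.0511, in a range of 1.16e-05 to 0.999992 over 16 alternatives). Ccr6 had 16 other peaks, 14 of them tested. None passed, with log2 fold changes from -1.09 to 0.98. The lowest was a peak in the 5' UTR, with 7.76 ± 2.17 CPM in knockout and 15.8 ± 3.14 in wild type (edgeR adjusted p = 0.123).

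The peak 17849 bp downstream of the start of Dusp7, a phosphatase gene that acts on MAP kinases (chr9:106386190-106386773), was the most accessible of the 7. It had 31.4, 31.0, 36.9 and 47.2 CPM in knockout and 88.0, 77.3, 55.8 and 57.8 in wild type, with no overlap (log2 fold change -0.85, SE 0.17, edgeR adjusted p = 0.0240). It missed the threshold without knockout replicate 1 (0.0958), 2 (0.0552) or 3 (0.143), without wild-type replicate 1 (0.132) or 2 (0.146), with DESeq2 (0.0541), without knockout replicates 1 and 2 together (0.0736) and with scaling to all tags, in a range of 0.00342673 to 0.999992 over 16 alternatives. It lay among other changed peaks. Of 103 other tested peaks within 1 Mb, 15 passed, 14 of them lower, against 0.17% of all tested peaks. Of the other peaks assigned to Dusp7, 3 passed: 26179 bp downstream (5.07 ± 1.57 CPM in knockout, 29.7 ± 1.59 in wild type), 35696 bp upstream (4.91 ± 5.90 and 25.4 ± 2.81) and 3406 bp downstream (30.7 ± 5.85 and 55.2 ± 7.73). Its promoter peaks, at -0.25 each on the log2 scale, did not.

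The peak 17076 bp downstream of the start of Cd300lb, an activating myeloid immunoglobulin-like receptor gene (chr11:114917197-114917423), had few tags in knockout. It held 3, 4, 12 and 9 tags in knockout and 27, 12, 19 and 38 in wild type, or 3.62, 5.91, 5.27 and 2.91 CPM against 13.4, 8.43, 10.8 and 17.7. The genotypes did not overlap (log2 fold change -1.62, SE 0.33, edgeR adjusted p = 0.0298). This peak was in the peak list of the wild type only, the genotype where it was higher, so its test is not independent of that. The call was lost without knockout replicate 1 (0.0625), 3 (0.0652) or 4 (0.205), without wild-type replicate 1 (0.0960), 3 (0.0560) or 4 (0.240), with DESeq2 (0.174) and with scaling to all tags, in a range of 0.0106 to 0.999992 over 15 alternatives.

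The last of the 7 lay 18893 bp upstream of Parp16, a mono-ADP-ribosyltransferase gene of the endoplasmic reticulum (chr9:65195636-65195959), inside the RefSeq long noncoding RNA gene Gm40527 (chr9:65193232-65212435). It had 16.9, 11.8, 10.5 and 11.6 CPM in knockout and 21.9, 30.9, 23.9 and 24.2 in wild type, with no overlap (log2 fold change -1.04, SE 0.22, edgeR adjusted p = 0.0365). It missed the threshold without knockout replicate 2 (0.0557), 3 (0.325) or 4 (0.161) and without wild-type replicate 2 (0.216), 3 (0.0990) or 4 (0.0896). It also missed it with DESeq2 (0.200), with a mean of at least 20 tags (0.0613), with the replicate number as a block (0.0512) and with scaling to all tags. The adjusted p ranged from 0.0157 to 0.999992 over 16 alternatives.

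In position, 3 of the 7 (Cd300lb, Wbp2 and Dnah17) lay within 3.23 Mb of chromosome 11. That stretch held 375 tested peaks of all classes, of which 9 passed (2.40%, against 0.17% of all tested peaks), and 76 tested near intergenic peaks, of which the 3 passed (3.95%). Its ends were set by the called peaks themselves, so these shares are a description. None of the 7 overlapped a RefSeq promoter window.

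Among peaks that did not pass, those with the smallest p in the higher direction were assigned to Jund (chr8:70702333-70703081, 4968 bp downstream of the start), St6galnac1 (log2 fold change 1.57, edgeR adjusted p = 0.0866) and Rab37 (1.13, adjusted p = 0.0940). The St6galnac1 peak had 19.3, 8.86, 7.46 and 10.4 CPM in knockout and 2.98, 3.51, 4.55 and 3.26 in wild type. The Rab37 peak had 15.7, 14.8, 18.9 and 16.5 CPM in knockout and 5.97, 7.03, 11.95 and 6.06 in wild type. In both, the genotypes did not overlap. St6galnac1 encodes a sialyltransferase and Rab37 a small GTPase of secretory vesicles. Both peaks lie inside the stretch of chromosome 11 that holds Cd300lb, Wbp2 and Dnah17. Of the other tested peaks within 1 Mb, 4 of 190 passed around St6galnac1 and 5 of 173 around Rab37, against 0.17% of all tested peaks. The St6galnac1 peak was in the peak list of the knockout only.

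The Jund peak also had the highest mean CPM over all 8 libraries among near intergenic peaks; in wild type a peak of Per1 was above it. JUND is a subunit of AP-1, a dimer of JUN and FOS family proteins. The peak had 254.6, 305.6, 263.0 and 139.1 CPM in knockout and 193.4, 116.0, 103.6 and 119.7 in wild type. Knockout replicates 1 to 3 were above every wild-type library, and knockout replicate 4 was not. The log2 fold change was 0.82 (SE 0.18, edgeR adjusted p = 0.0547). It passed without knockout replicate 4 (1.03, adjusted p = 0.000108) and without wild-type replicate 1 (1.06, adjusted p = 0.00347), in a range of 0.000108 to 0.999992 over 16 alternatives. Jund had 7 near intergenic peaks. Those 5782, 7811 and 9752 bp downstream of the start had log2 fold changes of 0.97, 0.85 and 1.22 and knockout replicates 1 to 3 again above every wild-type library, as was the weaker peak 3929 bp upstream (0.83). Those 1841 and 2302 bp upstream had -0.26 and -0.28. None passed.

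Peaks near immediate early genes, which are transcribed within minutes of many stimuli and include Fos, Egr1, Klf2 and Jund itself, were then counted, on a list of 25 genes chosen after the values were seen. They numbered 145 at 23 genes, of which 130 were tested. None passed in edgeR or DESeq2, 29 had an unadjusted p under 0.05 in edgeR (27 of them higher; 22.3%, against 4.83% of all tested peaks) and 93 had a log2 fold change above 0. Their median was 0.15, beside 0.0037 over all tested peaks. DESeq2 gave 17 with an unadjusted p under 0.05, and scaling to all tags gave 0. Their share of the tags in near intergenic peaks was 4.16%, 4.34%, 3.81% and 3.40% in knockout replicates 1 to 4 and 3.51%, 3.25%, 3.18% and 3.30% in wild-type replicates 1 to 4. The 3 highest shares were all knockout libraries, and knockout replicate 4 lay within the wild-type range. The 2 highest belong to the libraries with the lowest share of tags in peaks (6.68% and 4.96%); the part of that share in the result was not tested. Without the 7 Jund peaks, which prompted the count, 24 of 123 tested peaks had an unadjusted p under 0.05 (22 higher; 19.5%), 88 were above 0 and the median was 0.15. The shares were then 3.56%, 3.70%, 3.25% and 3.11% in knockout and 3.10%, 2.99%, 2.96% and 3.04% in wild type, with knockout replicate 4 close to wild-type replicate 1. With Jund and without knockout replicate 4, 9 peaks of the list passed, all higher, at Jund, Klf2, Btg2 and Ier2, when 0.206% of all tested peaks passed. Without wild-type replicate 1, 3 passed, when 0.14% of all did.

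**Figure D5:**
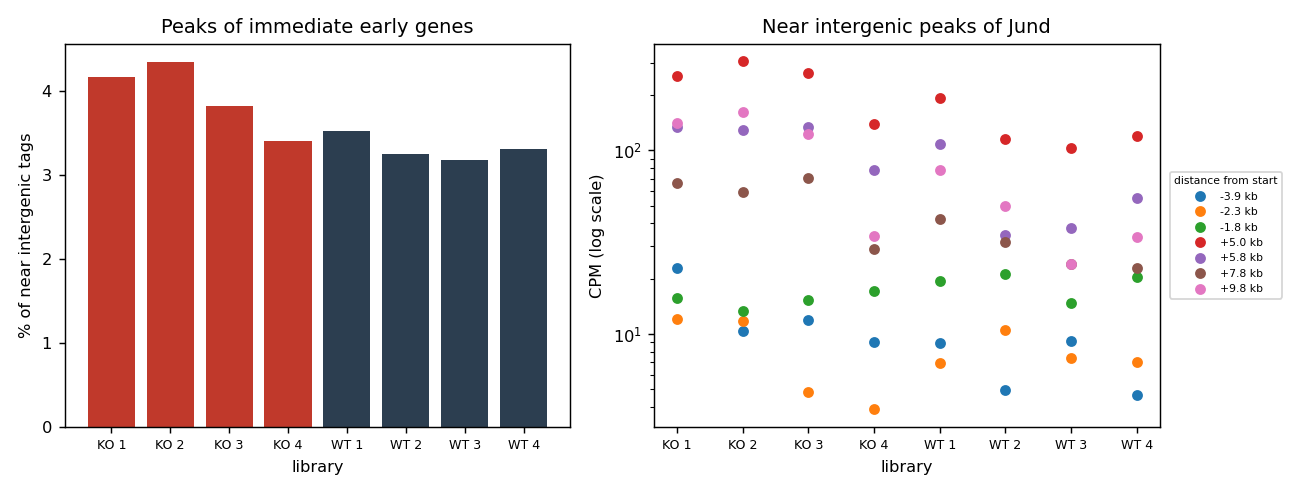
Left, the percentage of near intergenic tags that fall in peaks of 23 immediate early genes, by library, with bars from 0. Right, CPM on a log scale of the 7 near intergenic peaks of Jund by library, coloured by distance from the start; the 4 peaks 5.0 to 9.8 kb downstream are higher in knockout replicates 1 to 3 than in every wild-type library, and those 1.8 and 2.3 kb upstream are not.

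Summed over their near intergenic peaks, the members of this list differed. Dusp1, a MAP kinase phosphatase gene, had 360.8, 400.1, 338.5 and 287.9 CPM over 11 peaks in knockout and 290.8, 245.3, 224.2 and 292.5 in wild type. Ier2, whose product acts in the nucleus, had 65.2, 73.8, 65.4 and 56.3 over 3 peaks against 49.7, 40.1, 34.7 and 37.3, with no overlap. Klf2, a zinc finger factor gene, had 346.3, 543.3, 254.7 and 113.2 over 10 peaks against 211.3, 128.6, 181.0 and 152.3, so that its knockout libraries spread more than the genotypes differed. By contrast, Nr4a1 had 116.5 ± 14.0 over 5 peaks in knockout and 116.6 ± 5.74 in wild type, and Egr1 135.8 ± 12.1 over 3 and 133.2 ± 10.5.

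The 3 near intergenic peaks of Nlrp3 itself lay upstream of its start on chromosome 11, and none passed. The nearest, 3029 bp away (chr11:59538387-59538693), had 10.9, 16.2, 17.6 and 23.3 CPM in knockout and 33.8, 30.9, 23.9 and 28.9 in wild type. All wild-type libraries were above all knockout libraries there, with a log2 fold change of -0.67 (SE 0.21, edgeR adjusted p = 0.563). The peak 14670 bp away had 23.8 ± 4.40 CPM in knockout and 24.9 ± 3.03 in wild type (-0.0095, adjusted p = 0.999966, edgeR), and that 16138 bp away 7.37 ± 1.15 and 11.5 ± 4.02 (-0.59). The promoter peaks, which held 3 tags in all in knockout, thus differed from these 3, which kept tags in every library.

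By mean CPM over all 8 libraries, Jund was followed by peaks assigned to Per1, a gene of the circadian clock (164.5 ± 12.9 CPM in knockout, 158.5 ± 7.26 in wild type), Lag3, an inhibitory immune receptor gene (127.8 ± 7.69 and 116.2 ± 17.6), and Prr14 (121.0 ± 17.8 and 103.2 ± 7.35). They were followed by Cd83, a marker of activated antigen-presenting cells (110.4 ± 9.96 and 100.3 ± 6.23), and Zfp36, which encodes an mRNA decay factor for cytokine transcripts (113.0 ± 11.3 and 97.2 ± 9.47). Others in the top 10 were Tubgcp5 (100.1 ± 8.45 and 98.6 ± 15.6), A630001O12Rik (109.7 ± 4.59 and 97.0 ± 18.5) and Sirpa, a receptor for CD47 (103.2 ± 2.97 and 92.8 ± 16.0). None passed. The peak of Sfi1 (chr11:3196498-3196917) was unlike them, at 175.0, 243.6, 45.2 and 31.1 CPM in knockout and 52.2, 102.6, 84.8 and 72.7 in wild type. Its highest libraries were knockout replicates 1 and 2. As tags per 1000000 of the whole library it held 11.2, 11.5, 9.09 and 7.74 in knockout and 8.84, 9.68, 10.4 and 10.1 in wild type. Knockout replicates 1 and 2 were again the highest on that scale, in a narrower range. Its log2 fold change was 0.49 (edgeR adjusted p = 0.999966), and without knockout replicates 1 and 2 it was -1.03 (adjusted p = 0.00516, in a range to 0.999992 over 16 alternatives).

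Genes with the most near intergenic peaks were Malat1, a nuclear long noncoding RNA gene, with 14, and A630001O12Rik, Btg2, Cxxc5 and Mcl1 with 13 each. Over its 14 peaks Malat1 had 282.3, 196.3, 197.6 and 159.8 CPM in knockout and 175.5, 163.0, 151.4 and 177.0 in wild type. Its 13 tested peaks had log2 fold changes from -0.49 to 0.54, with 11 above 0. Mcl1, a survival gene of the BCL2 family, had 214.4 ± 17.0 CPM in knockout and 211.0 ± 15.1 in wild type. Btg2, an antiproliferative gene, had 315.7 ± 24.4 and 302.4 ± 22.9, and Cxxc5 345.0 ± 23.5 and 321.1 ± 28.6. No peak of these 5 genes passed in edgeR or DESeq2, and 5 in all had an unadjusted p under 0.05 in edgeR.

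Near intergenic peaks at the genes of 15 lists were then counted, by what the genes do. None passed in any list in edgeR or DESeq2, so only counts and medians follow, to be read beside the 4.83% of all tested peaks with an unadjusted p under 0.05 and the 50.5% with a log2 fold change above 0. Of the list of homeostatic microglia genes, 18 of 25 had such peaks, with 45 tested, 30 of them above 0 (66.7%) and a median log2 fold change of 0.15. Of the 45, 4 had an unadjusted p under 0.05 (8.89%), all higher, and 2 of these 4 were of Rhob, which is also on the immediate early list. Rhob had 11 of the 45 peaks, and the 34 others had a median of 0.083. The homeostatic list is taken up first by its leading peaks. The most accessible peaks of this list were assigned to Rhob, a small GTPase gene (71.9 ± 10.6 CPM in knockout, 64.0 ± 11.3 in wild type), and to Tmem119, a microglial surface marker (60.6 ± 5.61 and 48.8 ± 7.86). Of disease-associated microglia genes, 16 of 28 had peaks, with 42 tested, a median of -0.093 and 3 with an unadjusted p under 0.05 (7.14%), all lower. At Ctsd, which encodes a lysosomal protease, the leading peaks had 52.5 ± 10.6 and 52.5 ± 2.67 CPM, and 50.9 ± 4.39 and 48.2 ± 3.67. Microglial and myeloid transcription factor genes gave 57 tested peaks with a median of 0.065 and 7 with an unadjusted p under 0.05 (12.3%), all higher. All 7 belonged to the 5 genes it shares with the immediate early list (Egr1, Fos, Jun, Junb and Klf2), and its 29 other peaks had a median of -0.030. Irf5 had 87.9 ± 7.50 and 88.2 ± 8.85 CPM.

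Interferon response genes had 12 tested peaks with a median of 0.033 and none with an unadjusted p under 0.05. The leading one, at Ifnar2, a receptor subunit gene, had 65.7 ± 13.5 CPM in knockout and 61.8 ± 8.52 in wild type. Inflammatory cytokine and NF-kB genes had 44 tested peaks with a median of 0.075 and 3 with an unadjusted p under 0.05 (6.82%). The chemokine gene Ccl3 had 74.7 ± 12.4 and 71.3 ± 6.11, and Il1a, an interleukin-1 gene, 72.9 ± 8.59 and 69.9 ± 9.76. Inflammasome and pyroptosis genes had 18 tested peaks with a median of 0.020, and 1 with an unadjusted p under 0.05, the nearest Nlrp3 peak; P2rx7, the ATP receptor gene upstream of NLRP3, had 33.6 ± 11.2 and 30.5 ± 5.67. The lists tied to the metabolic question of the study gave few: glutamine and glutamate metabolism had 11 tested peaks with a median of 0.19 and 1 with an unadjusted p under 0.05, and alpha-ketoglutarate and the TCA cycle had 9 with a median of 0.12 and none. The 1 glutamine peak appears to be the one counted below for an astrocyte gene. Both lists had the same highest log2 fold change (0.6863) and the same smallest adjusted p (0.991764, edgeR). Gpt2, a mitochondrial alanine aminotransferase gene, had 46.6 ± 7.39 and 36.5 ± 6.14 CPM, Gclc, a glutathione synthesis gene, 39.0 ± 11.9 and 32.1 ± 4.64, and Kdm6b, a histone demethylase gene, 68.0 ± 2.20 and 58.3 ± 3.55, the last with no overlap. Phagocytosis and amyloid uptake genes had 29 tested peaks, a median of -0.00070 and none with an unadjusted p under 0.05, with Gas6, a bridging ligand gene, at 62.7 ± 12.9 and 67.0 ± 5.82.

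Among markers of other cells, near intergenic peaks were at 1 of 16 neuronal, 6 of 12 astrocyte and 4 of 13 oligodendrocyte lineage genes. They were also at 3 of 13 endothelial and mural, 4 of 15 border macrophage and monocyte and 2 of 17 granulocyte and lymphocyte genes. Interferon response genes, for comparison, had them at 6 of 22. Neuronal genes had 1 tested, astrocyte genes 6, oligodendrocyte lineage genes 3, and endothelial and mural, border macrophage and monocyte, and granulocyte and lymphocyte genes 4 each. Their medians were 0.051, -0.077, -0.22, -0.38, -0.0076 and 0.21 in that order, and 1 peak in all, of an astrocyte gene, had an unadjusted p under 0.05. That peak appears to be the one already counted for glutamine and glutamate metabolism. The most accessible was 1 of the pair at Klrb1c, a gene of natural killer cells, at 76.9 ± 8.54 CPM in knockout and 67.5 ± 8.84 in wild type.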

How the data were processed

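The deposited table held counts, whole tags per peak and library. Per the file headers, the authors counted with HOMER over merged IDR peak lists of both genotypes (peaks that rank alike between replicates), at given peak sizes, with at most 3 tags per position. Bowtie2, HOMER, DESeq2 and mm10 are named in the submitters' processing notes; for alignment settings and any shift of read ends, nothing is given in the sources used here. Gel selection for 165 to 250 bp favours short fragments, and scaling to all tags would not correct for the share of tags in peaks. All 8 columns were matched by name, and no pair within a genotype agreed within sampling noise.

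All peaks were fitted in edgeR 4.0.16 (R 4.3.3; quasi-likelihood, TMM, filterByExpr with a minimum count of 10, Benjamini-Hochberg), tested on simulated data. Density is summed tags over summed peak length. Exact permutations used Python 3.11.15 and scipy 1.17.1; DESeq2 1.42.0 was an alternative. The labels' replicate numbers were not used to pair libraries. Named peaks are those that passed, the smallest p where fewer than 5 passed in a direction, the 10 highest in CPM, the highest 2 of each list, those of Nlrp3, genes with the most peaks and the edges of the distance rule. Of 4273 gene names, 4173 matched RefSeq. The members and lists were chosen with earlier results of these data known. The printed sequences were chosen after values were seen. Motif shares of tags and the sequences of the 7 called peaks were not analysed here.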

Additional observations from a re-analysis of the deposited data

Results flagged for a closer look

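Of 114 sets of 4 libraries of 1 genotype (104 at named near intergenic peaks and 10 of the library shares and ratios), 7 had a library far from the other 3 for the spread of the set, all at named peaks; chance marks about 1 in 20. At the Ccr6 peak, knockout replicate 1 had 21.7 CPM and the others 4.43 to 6.15. At the Sirpa peak, wild-type replicate 3 had 68.9 CPM and the others 98.4 to 102.0. At the Irf5 peak, knockout replicate 2 had 76.8 CPM (others 90.5 to 93.1) and wild-type replicate 1 had 101.4 (others 82.9 to 84.8). At the Ctsd peak at chr7:142398007, wild-type replicate 1 had 53.7 CPM and the others 46.1 to 46.6. At the Gpt2 peak, knockout replicate 2 had 57.6 CPM and the others 41.7 to 43.5. At the Nlrp3 peak at chr11:59525239, wild-type replicate 1 had 5.47 CPM and the others 13.1 to 14.0. The Ccr6 peak is the only one of these 6 peaks that passed the test between genotypes.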

How the results depend on the processing

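Near intergenic peaks called numbered 7 (2 higher, 5 lower). That was 0.11% of those tested, against 0.17% of all tested peaks. DESeq2 gave 3 (1 and 2, 0.0472% against 0.112%), and a mean of at least 20 tags 3 (0 and 3, 0.0975% against 0.138%). Robust moderation gave 11 (4 higher, 0.173% against 0.193%), and scaling to all tags 1 (1 and 0, 0.0157% against 0.0327%). The remaining sets are each read against 0.17%. A distance limit of 10 kb gave 2 (1 and 1, 0.0521%), repeats and CpG islands included 17 (6 and 11, 0.207%), and peaks in both lists 4 (0 higher, 0.0732%). Without knockout replicates 1 and 2 together there were 21 (5 and 16, 0.295% against 0.378% of all). Leaving out 1 library gave 2 to 17 called, 1 to 14 higher and 1 to 4 lower. The cause of these differences was not tested, beyond the fewer peaks that the stricter sets hold. Without those 2 knockout libraries, Sfi1 turned from 0.49 to -1.03. With the replicate number as a replicate block, 11 were called (7 higher, 0.173% against 0.241% of all). Of these 11, 6 were shared with the unblocked fit (Parp16 was lost, at an adjusted p = 0.0512, edgeR). In that fit the Jund peak had an adjusted p = 0.00240 (edgeR) at a log2 fold change of 0.82, and 5 immediate early peaks passed. Same-numbered libraries deviated together at correlations of -0.0077, 0.095, -0.0075 and 0.146, so the numbers were not taken to pair them, and not every library correlated best with its own number. The density ratios that passed (to promoters, introns and intergenic peaks farther away) kept their direction throughout and their call in every alternative but 1: without knockout replicates 1 and 2 together they were -0.62, 0.10 and 0.044, each with an adjusted p = 0.09375 (exact sign-flip test), from the smallest unadjusted p that 6 libraries allow. As single libraries were left out, the uncalled genotype differences ranged from 0.079 to 0.385 percentage points in the share of tags, from 0.066 to 0.197 in the promoter ratio and from -0.0034 to 0.016 in the far intergenic ratio. The alternatives on motif shares were not run. Depth limits the low peaks most, at 8 tags for the median peak in knockout replicate 2.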

Other observations

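Of the 3076 near intergenic peaks with a mean of at least 20 tags, 9 had CPM in knockout replicates 1 and 2 that were both over 1.5 times that of every other library. They were assigned to Sfi1 (2 peaks), Eif4enif1, Klf2, Hnrnpl, Mybphl, Trpm8, Hjurp and Gm3336. At the Eif4enif1 peak (chr11:3199534-3199901), CPM were 84.5 and 143.2 in knockout replicates 1 and 2 and 12.6 to 51.3 in the other 6 libraries, while tags per 1000000 of the whole library were 5.39 and 6.78 there and 3.14 to 5.99 in the others. At the Hjurp peak (chr1:88284291-88285814), CPM were 105.0 and 141.7 in those 2 libraries and 14.9 to 59.0 in the others, while tags per 1000000 of the whole library were 6.69 and 6.71 there and 2.06 to 6.01 in the others. At the first Klf2 peak (chr8:72325126-72325911), tags per 1000000 of the whole library were 4.85 and 4.13, within the 1.72 to 8.83 of the others. These peaks were chosen by the values given, and none passed the test between genotypes with all libraries.

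Without knockout replicate 4, 14 near intergenic peaks were higher in knockout, of which 12 were not called with all libraries and 9 belonged to immediate early genes. Apart from those and from Kcna6 and Wbp2, they were a pair assigned to Rn4.5s (log2 fold changes 2.67 and 2.12) and 1 assigned to Gm3336 (1.29), which lies next to the Jund peaks on chromosome 8.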
